A study of Mus musculus with 4 samples.

Results

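The genes described here are 32 mouse genes that encode neuropeptide precursors, taken as a list of gene symbols, and their transcripts were measured in the whole brain with and without the RNA editing enzyme ADAR2. A transcript cluster is the set of array probes that the design assigns to a transcribed locus, and every gene of the list matched 1 of the 33793 clusters on the array by symbol. Total RNA came from the brains of adult female mice of the strain 129SV. The wild-type group had 2 arrays and the Adar2-/- group, with both copies of Adarb1 disrupted in the germline and hence in all tissues, had 2. Per the study's methods the mice were siblings from heterozygous crosses, and both groups were homozygous for a pre-edited Gria2 allele, Gria2R/R, which spares knockout mice the early seizures and death. The comparison therefore concerns the loss of ADAR2 in mice whose GluA2 subunit no longer needs to be edited.

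Neuropeptides are short signalling peptides that neurons cut out of longer precursor proteins, load into dense-core granules and release on strong activity. Most act on G-protein-coupled receptors, often at a distance from the site of release. Some of their genes are active in small hypothalamic nuclei, such as those for oxytocin, vasopressin, orexin and the releasing hormones, whereas others are transcribed by interneurons of the cortex and hippocampus or by projection neurons of the striatum. Transcription of several of them depends on neuronal activity through cyclic AMP and the factor CREB. In RNA of the whole brain, fewer cells of a type and less RNA per cell cannot be told apart.

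The genotype labels were checked by Adarb1, the gene for ADAR2, which had log2 signals of 10.50 and 10.45 in wild type and 9.16 and 8.96 in the knockout (log2 fold change -1.415, limma p 2.57e-05, adjusted p 0.409). All 13 markers of neurons and glia lay on every array above the Y-linked genes, which female mice lack and whose log2 signals of 3.49 to 4.40 served as the level of background. Markers of brain regions and of other tissues differed between single arrays. The 8 olfactory bulb markers were each lowest on Adar2-/- replicate 2, where their summed linear signal was 2051, against 2644 to 3086 on the other arrays. Markers of salivary gland summed to 8643 on Adar2-/- replicate 1 and to 331 to 377 elsewhere, led by Bpifa2 at 12.61. Anterior pituitary markers, with Prl and Gh the most changed, summed to 471 and 552 in wild type and to 1557 and 2497 in the knockout. Choroid plexus markers were higher on wild type replicate 2 than on replicate 1 in 10 of 10 clusters, with sums of 10702 and 8389. Red cell markers summed to 5282 on Adar2-/- replicate 1 and to 6690 to 8208 elsewhere, led by an Hba-a2 cluster at 12.14 on the former. Clusters with 2 of these symbols were counted for each. Not all were lowest on that array, since an Hbb-b1 cluster had 6.83 there and 6.55 on wild type replicate 1. The part of these markers in the values below was not tested. A value given without one of these arrays drops the whole sample, so it does not separate the part of its markers.

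The neuropeptide precursors differed little between the genotypes. None of the 32 had an adjusted limma p below 0.05 (lowest 0.834), and over the array this was met by 0 clusters, or 0%. An unadjusted limma p below 0.05 was reached by 1 member, Nppc, or 3.12% of the list, where 5.95% of all clusters reached it. Of all clusters 3.64% did so with a higher and 2.31% with a lower signal in the knockout, that is 1230 and 779 clusters, and these became 801 and 1229 once each array was centred on its median and 896 and 944 after quantile normalization. The genotypes did not overlap in 11 members, or 34.4%, against 34.1% of all clusters. With 2 arrays against 2, an exact permutation test of a single gene cannot give a two-sided p below 0.333.

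The changes were small as well as uncertain. Over the members the log2 fold change of Adar2-/- over wild type ranged from -0.36 to 0.355 with a median of 0.02, beside a median of 0.005 over all clusters. Centring the arrays on their medians turned the former to -0.02 and the latter to -0.035. With single arrays left out the median over the members ran from -0.045 to 0.0775. In 23 of the 32 members the change was smaller than 0.2 in either direction on the log2 scale. The median absolute change was 0.1175 over the members and 0.1 over all clusters, so the members did not change less than the array as a whole. The 95% interval of the limma fit stayed within a log2 change of -1 to 1, a 2-fold change either way, for 32 of 32 members, each interval taken by itself. The change was larger than both gaps between replicates in 9 members, or 28.1%, and in 23.1% of all clusters.

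**Figure D1:**
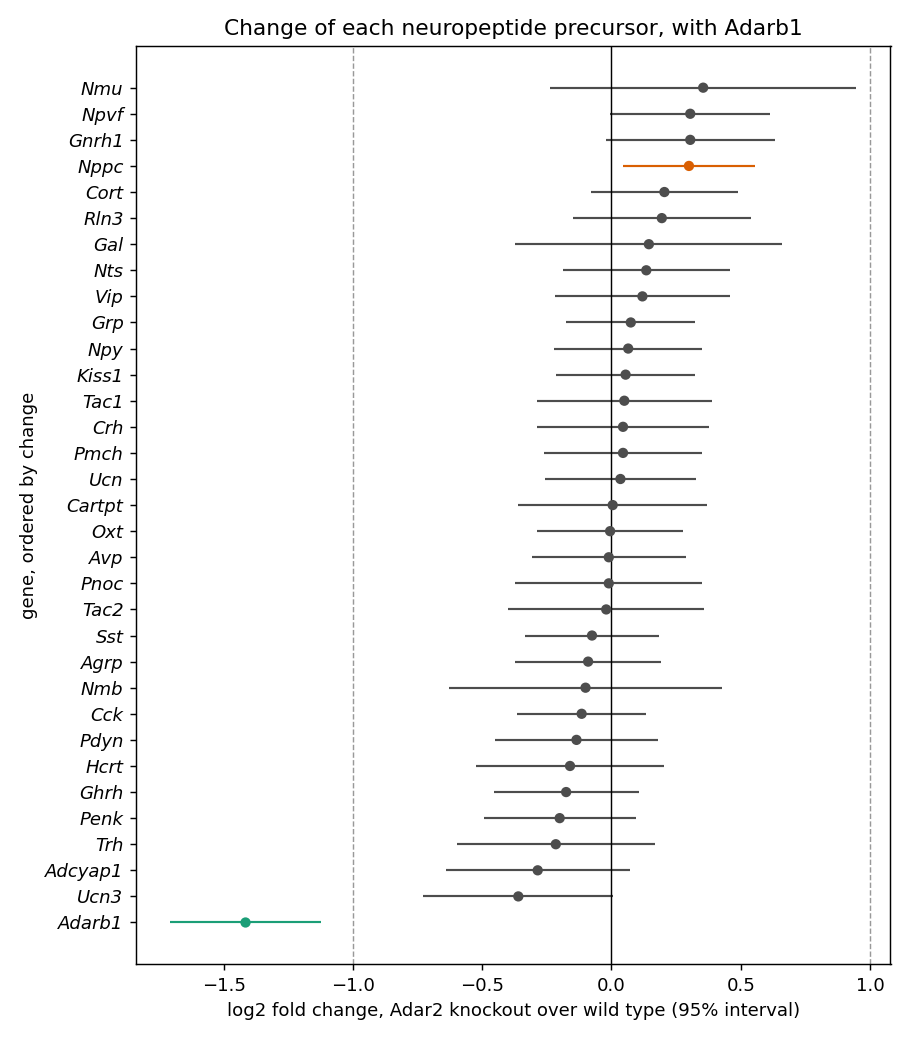
Log2 fold change of Adar2-/- over wild type for the 32 neuropeptide precursors and Adarb1, ordered by size, with the 95% interval of the limma fit (2 arrays per genotype). Dashed lines mark a 2-fold change, the green point is Adarb1 and the orange point is Nppc, whose interval of 0.0445 to 0.556 leaves out 0.

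Nppc encodes the precursor of C-type natriuretic peptide, which acts on the guanylyl cyclase receptor encoded by Npr2 and is bound and cleared by the receptor encoded by Npr3. Its cluster (chromosome 1, 86666291 to 86670573, minus strand, build not named in the file) gave 7.94 on both wild-type arrays, and 8.28 and 8.20 in the knockout. Both knockout arrays thus lay above both wild-type arrays, and the wild-type arrays did not differ at the 2 decimals deposited. The log2 fold change was 0.30 (SE 0.104), or 1.23-fold, with an unadjusted limma p of 0.0285 and an adjusted p of 0.834. The change kept its direction in all 11 alternatives, from 0.26 to 0.34, but the unadjusted p was 0.0738 when either wild-type array was left out and 0.0812 without Adar2-/- replicate 1. The signals of Npr2 were 8.99 and 8.84 in wild type, the knockout arrays enclosed both, and the change was -0.025 (interval -0.34 to 0.29). Npr3 had 6.88 and 6.97 in wild type and 6.80 and 6.85 in the knockout.

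The promoter window of Nppc is shown because Nppc was the single member past the unadjusted threshold. It covers the 250 bases before and the 50 after the RefSeq start of the gene (GRCm38.p6, chr1:86670524-86670823, minus strand). Capitals mark the letters TATAAA, which begin at position -29 relative to the start.

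Nppc: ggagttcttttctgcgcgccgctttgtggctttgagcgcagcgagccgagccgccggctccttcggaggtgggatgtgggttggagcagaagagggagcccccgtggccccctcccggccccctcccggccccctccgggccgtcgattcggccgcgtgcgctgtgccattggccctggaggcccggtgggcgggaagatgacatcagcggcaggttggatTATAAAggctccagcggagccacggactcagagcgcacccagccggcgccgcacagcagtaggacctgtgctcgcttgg

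Such windows were at hand for 26 of the 32 genes. Those of Agrp, Gnrh1, Grp, Crh, Pnoc and Penk were not analysed here. On either strand TATAAA was found in 8 of the 26, or 30.8%, and in 15.7% of the 27025 genes with a window. The others were Adcyap1, Ghrh, Hcrt, Npvf, Pmch, Rln3 and Vip, so the letters occurred in genes with higher and with lower signals in the knockout.

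Ucn3 had the lowest log2 fold change of the list. It encodes urocortin 3, a ligand of the CRF type 2 receptor made in the hypothalamus and medial amygdala. Its signals were 6.03 and 6.25 in wild type and 5.93 and 5.63 in the knockout. Neither knockout value reached the lower wild-type value, and the change of -0.36 (SE 0.149) had an unadjusted limma p of 0.0532. The unadjusted p was below 0.05 in 5 of the 11 alternatives, among them median centring (0.0316) and quantile normalization (0.0325). It was 0.046 when Adar2-/- replicate 1, the array with the salivary markers, was left out, with a change of -0.51, and 0.26 when replicate 2 was left out, with a change of -0.21. Ucn, the gene for urocortin 1, had 6.62 and 6.81 in wild type and 6.80 and 6.70 in the knockout, which overlapped. Rln3, the relaxin family peptide of the nucleus incertus, had 7.49 and 7.32 against 7.74 and 7.46, and its change of 0.195 had a limma p of 0.213. It came to 0.055 without Adar2-/- replicate 1 and to 0.335 without replicate 2.

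Among the releasing hormones and the peptides that govern them, Gnrh1 and Npvf were higher on both knockout arrays. Gnrh1, the precursor of gonadotropin-releasing hormone, had 5.44 and 5.61 in wild type and 5.71 and 5.95 in the knockout, a log2 fold change of 0.305 (SE 0.133, limma p 0.0629). Npvf encodes RFamide-related peptides that restrain the gonadotropin axis, and had 4.33 and 4.20 in wild type against 4.68 and 4.46 in the knockout. Both wild-type values lay within the range of the Y-linked genes, so the size of its change of 0.305 (limma p 0.0528) is not fixed. Neither passed the unadjusted threshold in the fit described so far, of the deposited values with genotype as the only term. Npvf passed it in 4 of 11 alternatives, one of them the fit without dim clusters, which kept Npvf through its knockout values, and Gnrh1 in 1, the fit with the replicate number as a block (limma p 0.0389). With single arrays left out the change of Npvf ranged from 0.195 without Adar2-/- replicate 1 (limma p 0.204) to 0.415 without replicate 2 (limma p 0.0431). That of Gnrh1 ranged from 0.185 without Adar2-/- replicate 2 (limma p 0.258) to 0.425 without replicate 1 (limma p 0.052).

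The other members of this group moved less or the other way. Kiss1, whose product kisspeptin drives gonadotropin-releasing hormone neurons, ranged from 5.06 to 5.20 over the 4 arrays with a change of 0.055. Ghrh, the growth hormone-releasing hormone, had 5.96 and 6.08 in wild type and 5.78 and 5.91 in the knockout, a change of -0.175 (limma p 0.175) with groups that did not overlap. It came to -0.11 when Adar2-/- replicate 1 was left out and to -0.115 when wild type replicate 2 was. Trh, the precursor of thyrotropin-releasing hormone, had 7.82 and 7.95 in wild type and 7.86 and 7.48 in the knockout, so that Adar2-/- replicate 2 alone was low, and its change was -0.215 (limma p 0.217). The 19 clusters of the hypothalamic markers, which hold no peptide precursor, had a median log2 fold change of 0.04 and 0 of them had a limma p below 0.05. Their mean log2 signal ranged from 6.53 to 6.60 over the 4 arrays.

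For the magnocellular hormones the difference between genotypes was far within the replicate spread. Oxt, the precursor of oxytocin, had 7.37 and 7.55 in wild type and 7.45 and 7.46 in the knockout, and its log2 fold change was -0.005 with an interval from -0.286 to 0.276. Avp, the precursor of vasopressin, lies next to it on chromosome 2 and had 8.85 and 9.05 against 8.99 and 8.89. In both genes the knockout arrays fell between the wild-type arrays, and the change of Avp was -0.01 (interval -0.307 to 0.287).

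In the 5 peptides of feeding and arousal the genotypes overlapped throughout. Hcrt, the precursor of the orexins that sustain wakefulness, had 7.25 and 6.98 in wild type and 7.08 and 6.83 in the knockout, a change of -0.16. With single arrays left out the change of Hcrt ranged from -0.295 to -0.025. Pmch, the precursor of melanin-concentrating hormone, had 6.41 and 6.17 against 6.31 and 6.36. The opposing arcuate signals also changed little: Agrp, which promotes feeding, was at 4.96 on both wild-type arrays and at 4.96 and 4.78 in the knockout. Npy, a feeding signal in the arcuate nucleus and an interneuron peptide elsewhere, had 11.02 and 10.92 in wild type and 11.12 and 10.95 in the knockout. Cartpt, which restrains feeding, ranged from 8.45 to 8.81 in wild type and lay at 8.59 and 8.68 in the knockout, with a change of 0.005. The limma p of these 5 genes ranged upward from 0.322.

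**Figure D2:**
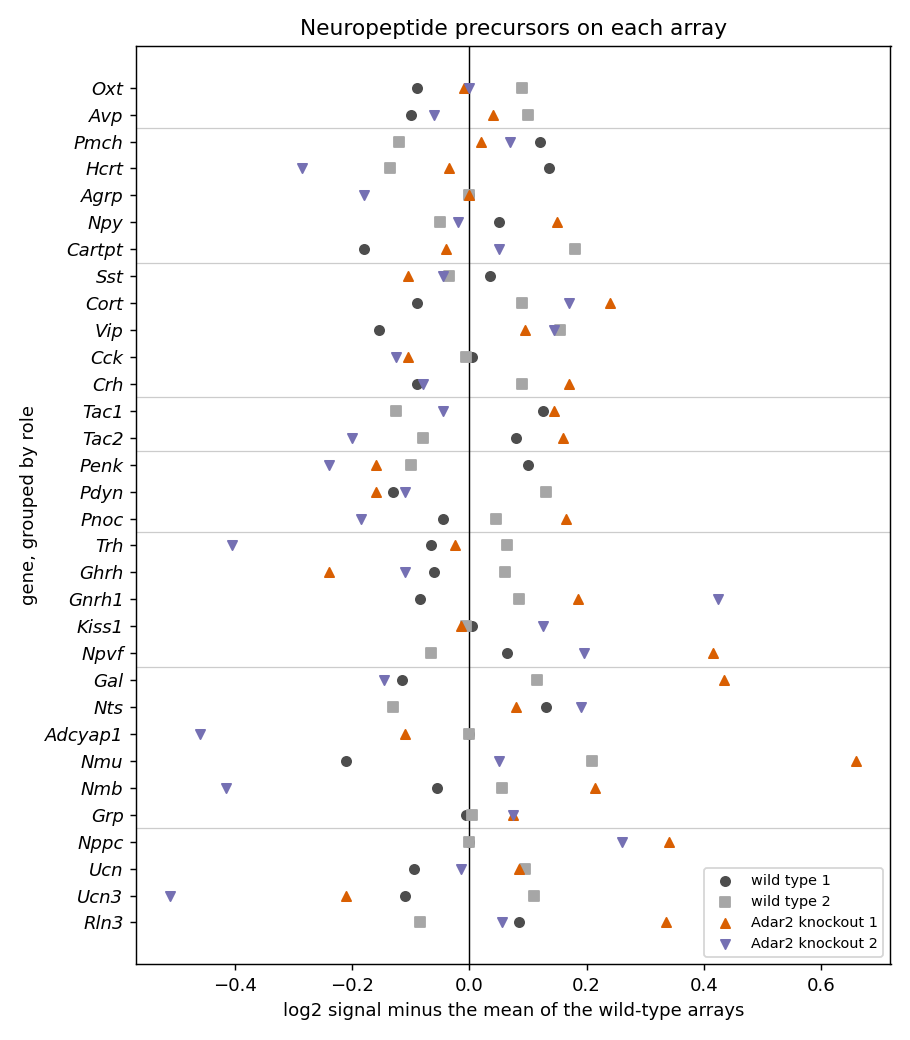
Log2 signal of each neuropeptide precursor on the 4 arrays, drawn as the difference from the mean of the wild-type arrays and grouped by role. In Oxt and Avp the knockout points lie between the wild-type points, in Nppc both knockout points lie above them, and in Trh, Adcyap1, Nmb and Ucn3 Adar2-/- replicate 2 is lowest.

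The 3 opioid precursors all had lower means in the knockout, but none passed the threshold. Penk, which yields the enkephalins and is abundant in striatal neurons of the indirect pathway, had 11.91 and 11.71 in wild type and 11.65 and 11.57 in the knockout. Its groups did not overlap, but the change of -0.20 was no larger than the gap of 0.20 between the wild-type arrays (limma p 0.146). Pdyn, the precursor of the dynorphins in neurons of the direct pathway, had 7.83 and 8.09 against 7.80 and 7.85, and Pnoc, the precursor of nociceptin, had 7.08 and 7.17 against 7.29 and 6.94. With single arrays left out the change of Penk ranged from -0.30 to -0.10 and that of Pdyn from -0.265 to -0.005, and the change of Pnoc, -0.01 with all arrays, turned to 0.165 without Adar2-/- replicate 2 and to 0.035 without wild type replicate 2. Striatal markers were lower on average too, in 7 of 8 clusters with a median of -0.178, and their summed linear signal was 5009 and 5053 in wild type and 4456 and 4576 in the knockout. Drd1, the dopamine receptor of the direct pathway, was the striatal marker with a limma p below 0.05, at 8.29 and 8.15 in wild type and 7.84 and 7.96 in the knockout (limma p 0.0325). Whether these markers account for the values of Penk and Pdyn was not tested.

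The tachykinin genes overlapped between the genotypes. Tac1, the precursor of substance P, which neurons of the direct pathway also make, had 8.49 and 8.24 in wild type and 8.51 and 8.32 in the knockout. Tac2, the precursor of neurokinin B, had 9.29 and 9.13 against 9.37 and 9.01. Both sets of knockout values enclosed or overlapped the wild-type values, and the changes were 0.05 and -0.02.

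Among peptides of cortical and hippocampal interneurons, Sst and Cck were slightly lower and Cort slightly higher on both knockout arrays. Sst, the precursor of somatostatin, had 12.03 and 11.96 in wild type and 11.89 and 11.95 in the knockout. Cck, the precursor of cholecystokinin, had 11.94 and 11.93 against 11.83 and 11.81, and the gaps between replicates were 0.01 and 0.02. Its change of -0.115 was thus larger than the spread of its own replicates but had a limma p of 0.30. The limma fit draws the spread of each gene toward that of all clusters. Taken on its own 4 values, without that step, Cck had a p of 0.00932 in the pooled-variance test.

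Cort encodes cortistatin, a relative of somatostatin. It had 6.27 and 6.45 in wild type and 6.60 and 6.53 in the knockout, a change of 0.205 (limma p 0.128) that came to 0.115 when wild type replicate 1 was left out. Vip, a peptide of interneurons that inhibit other interneurons, had 7.80 and 8.11 against 8.05 and 8.10. Crh, the precursor of corticotropin-releasing hormone in hypothalamus and cortex, had 6.37 and 6.55 against 6.63 and 6.38. The 9 clusters of general interneuron markers, Gad1 and Pvalb among them, had a median change of -0.045 and 0 of 9 with a limma p below 0.05.

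The cyclic AMP response element, TGACGTCA, is the textbook binding site of CREB, and its letters read the same on both strands. It occurred in the windows of 3 of the 26 members, Sst, Cartpt and Ucn, or 11.5%, and in 549 of 27025 genes, or 2.03%. The element with the 50 bases on each side is printed for these 3 genes, in the direction of transcription and with the element in capitals, to show which members carry this activity-dependent element close to the start. Relative to the RefSeq start it begins at position -48 in Sst (GRCm38.p6, chr16:23890835-23890942), -112 in Cartpt (chr13:99900738-99900845) and -44 in Ucn (chr5:31138882-31138989), all on the minus strand.
Sst: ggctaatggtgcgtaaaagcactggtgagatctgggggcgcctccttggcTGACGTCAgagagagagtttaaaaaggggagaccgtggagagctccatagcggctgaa
Cartpt: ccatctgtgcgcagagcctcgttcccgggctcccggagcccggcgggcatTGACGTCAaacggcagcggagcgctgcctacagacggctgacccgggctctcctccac
Ucn: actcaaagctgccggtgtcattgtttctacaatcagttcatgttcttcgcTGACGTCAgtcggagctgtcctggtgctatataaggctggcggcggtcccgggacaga

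The log2 fold changes of these 3 genes were -0.075 for Sst, 0.005 for Cartpt and 0.035 for Ucn, with limma p-values of 0.500, 0.974 and 0.779. The intervals were -0.333 to 0.183, -0.362 to 0.372 and -0.259 to 0.329.

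In several peptides the knockout arrays differed from each other by more than the genotypes did. Nmb, the precursor of neuromedin B, had 7.26 and 7.37 in wild type and 7.53 and 6.90 in the knockout, a gap of 0.63 against a change of -0.10. Nmu, the precursor of neuromedin U, had 5.28 and 5.70 in wild type and 6.15 and 5.54 in the knockout, and the change of 0.355 was the highest of the list but had a limma p of 0.191. It came to 0.05 without Adar2-/- replicate 1 and to 0.145 without wild type replicate 1, and to 0.66 and 0.565 without the other array of each genotype. Gal, the precursor of galanin, had 7.86 and 8.09 against 8.41 and 7.83. These are the 3 members with the widest gaps between replicates, and in each the lower knockout value was that of replicate 2, which is also the array low in olfactory bulb markers.

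Like Nmb, Adcyap1 and Trh were lowest on Adar2-/- replicate 2. Adcyap1, the precursor of PACAP, had 8.53 on both wild-type arrays and 8.42 and 8.07 in the knockout, so that the groups did not overlap (change -0.285, limma p 0.0968). Without Adar2-/- replicate 1 the changes of Adcyap1, Nmb and Trh were -0.46, -0.415 and -0.405, with unadjusted limma p-values of 0.0207, 0.0385 and 0.0457. Without Adar2-/- replicate 2, Nmb turned to 0.215, Adcyap1 came to -0.11 and Trh to -0.025. Of the 32 members 21, or 65.6%, were lower on Adar2-/- replicate 2 than on replicate 1, as were 51.1% of all clusters. Doc2g, a gene of olfactory bulb projection neurons, showed the same order more strongly, at 7.75 and 6.70 in the knockout and 7.74 and 7.92 in wild type. Among all 4 arrays, Adar2-/- replicate 2 was lowest in 11 members, or 34.4%, and in 25.9% of all clusters. Adar2-/- replicate 1 was highest in 12 members and in 8413 of the 33793 clusters.

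**Figure D3:**
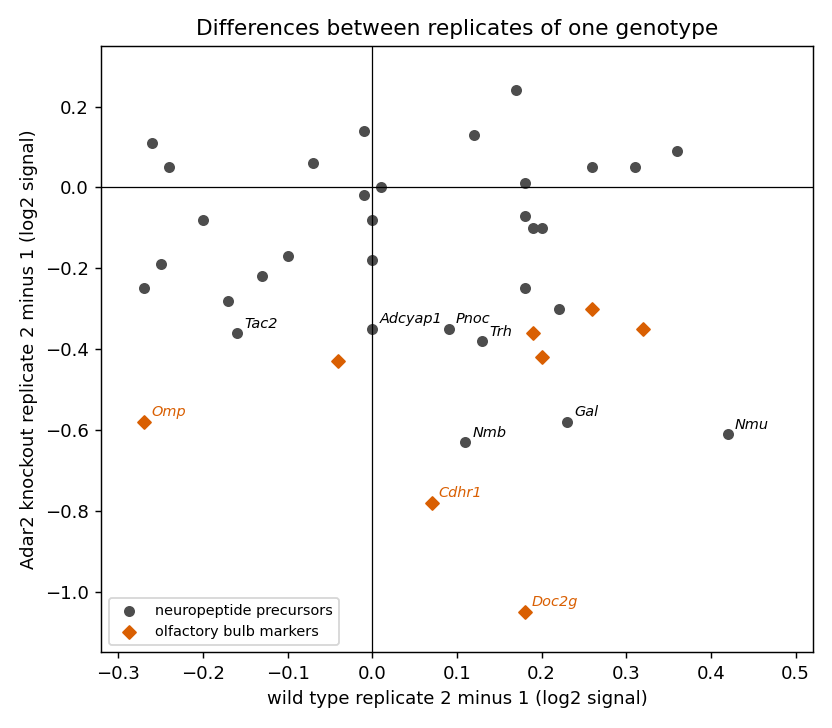
Difference between the replicates of each genotype for the 32 neuropeptide precursors (grey circles) and the 8 olfactory bulb markers (orange diamonds), wild type on the horizontal and Adar2-/- on the vertical axis, in log2 signal. All 8 markers lie below 0 on the vertical axis, with Doc2g lowest, and Nmb, Nmu and Gal are the lowest of the precursors.

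In Grp and Nts the knockout replicates lay close together. Grp, the precursor of gastrin-releasing peptide, was even among replicates, at 8.33 and 8.34 in wild type and 8.41 on both knockout arrays, a change of 0.075 (limma p 0.486). In the pooled-variance test without shrinkage its p was 0.00442. Nts, the precursor of neurotensin, had 7.02 and 6.76 against 6.97 and 7.08.

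Of the 53 receptors for these and related peptides, 4 had an unadjusted limma p below 0.05, or 7.55%, against 5.95% of all clusters in both directions. The 4 were all lower in the knockout, as were 2.31% of all clusters, a direction taken up after the values were seen. After median centring 6 receptors and 1229 of the 33793 clusters passed with a lower signal. No receptor passed the adjusted threshold (lowest 0.834). Npy1r, the Y1 receptor of neuropeptide Y, had 7.93 and 7.91 in wild type and 7.37 and 7.51 in the knockout. Its change of -0.48 (SE 0.109, interval -0.749 to -0.211, limma p 0.00495) exceeded both gaps between replicates, and the unadjusted p stayed below 0.05 in 11 of 11 alternatives, at 0.0363 or less, with changes from -0.55 to -0.41. Npy itself, with 11.02 and 10.92 against 11.12 and 10.95, overlapped between the genotypes.

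The other 3 receptors rested on fewer settings. Sstr1, a somatostatin receptor, had 7.68 and 7.88 in wild type and 7.49 and 7.27 in the knockout (change -0.40, limma p 0.0251). Cckar, the cholecystokinin A receptor, had 5.31 and 5.62 against 5.12 and 5.11, and Nmbr, the receptor of neuromedin B, had 7.41 and 7.30 against 6.99 and 7.14. The change of Cckar was -0.35 and came to -0.195 without wild type replicate 2. The unadjusted p stayed below 0.05 in 6 of 11 alternatives for Sstr1, in 5 for Cckar and in 4 for Nmbr. Without wild type replicate 2 these became 0.150, 0.148 and 0.0781, and without Adar2-/- replicate 2 they became 0.139, 0.168 and 0.0523. Sstr1 passed without Adar2-/- replicate 1 and Cckar without wild type replicate 1, where Sstr1 had 0.0518, and Nmbr had 0.166 without wild type replicate 1 and 0.159 without Adar2-/- replicate 1, where Cckar had 0.160.

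Across the whole receptor list the median log2 fold change was -0.025, beside 0.005 over all clusters, and 27 clusters were lower and 25 higher. After median centring 35 were lower and 16 higher, and after quantile normalization 30 and 23. The genotypes did not overlap in 14 receptors that were lower and 3 that were higher, or 26.4% and 5.66%, where 16.5% and 17.7% of all clusters were lower and higher. By the same measure 5 of 8 striatal markers, 4 of 13 markers of neurons and glia and 5 of 12 clusters of degrading peptidases were lower, and 0 of each were higher. The part of these markers in the receptor values was not tested. Ntsr1, Mchr1 and Cckbr, receptors of neurotensin, melanin-concentrating hormone and cholecystokinin, were among the lower ones, with changes of -0.25, -0.28 and -0.255, and Grpr, the receptor of gastrin-releasing peptide, was among the higher ones, with 0.325. On the deposited values with all clusters none of these 4 passed the unadjusted threshold. In the alternatives Ntsr1 passed it 5 times, Mchr1 2 times, and Cckbr and Grpr once each, without Adar2-/- replicate 1.

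The genes that cut, amidate and store the peptides did not pass the threshold. Of 20 clusters, among them Pcsk1, Pcsk2, Cpe and Pam, 0 had a limma p below 0.05, and the median change was -0.035. The largest difference was that of Pcsk2, the prohormone convertase 2, with 11.31 and 11.20 in wild type and 10.95 and 11.04 in the knockout (change -0.26, limma p 0.056). The granule protein genes Scg2 and Vgf changed by -0.04 and -0.015. Of the 12 clusters of peptidases that break peptides down, 0 had a limma p below 0.05, with a median of -0.025.

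Among 25 further peptide precursors, 1 had an unadjusted limma p below 0.05. This was Pomc, the precursor of ACTH, melanocortins and beta-endorphin, which is made in the arcuate nucleus and in far larger amounts in the pituitary. It had 5.36 and 5.09 in wild type and 5.97 and 5.50 in the knockout, a change of 0.51 (limma p 0.0366, adjusted p 0.834). Without wild type replicate 1 or 2 or Adar2-/- replicate 1 the p was 0.101, 0.260 and 0.209, and the change was 0.645, 0.375 and 0.275. Without Adar2-/- replicate 2 it was 0.745. Of the 12 clusters of the pituitary markers given above, 10 had a higher mean in the knockout, or 8 after median centring and 8 after quantile normalization, and 5 were higher on both knockout arrays than on either wild-type array. Their part in the signal of Pomc was not tested. Over the 25 genes the median change was 0.06, with 19 higher and 6 lower, 0.02 after median centring, with 15 higher and 9 lower, and 0.025 after quantile normalization, with 16 higher and 9 lower.

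**Figure D4:**
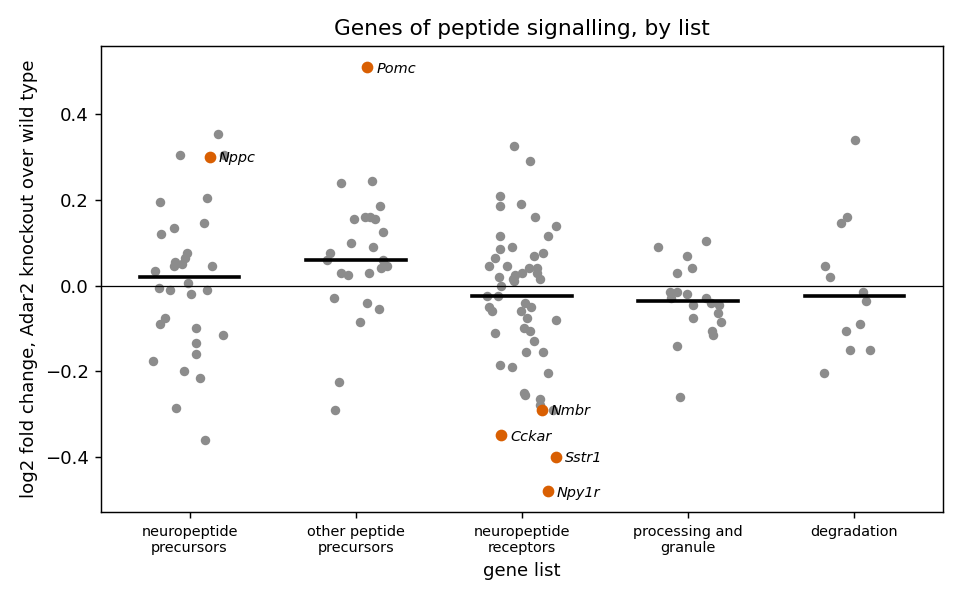
Log2 fold change of Adar2-/- over wild type for each cluster in 5 lists of peptide signalling genes, with the median of each list as a bar and clusters with an unadjusted limma p below 0.05 in orange. Nppc and Pomc lie above 0, the receptors Npy1r, Sstr1, Cckar and Nmbr lie below 0, and no gene of the processing or degradation lists is marked.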

How the data were processed

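RNA from whole brain, 2 samples titled wild type and 2 titled Adar2-/-, was hybridised to Affymetrix gene arrays for mouse. The study's methods read as 1 mouse per array, which the labels do not state. The p-values measure the spread between these samples. The authors deposited 33793 transcript clusters as normalized log2 signals with 2 decimals. The submitters' processing notes name Affymetrix Expression Console and RMA, and the genome build and array design were not given in the sources used here. Columns with the authors' own means, ratios, fold changes and p-values were not used. Signals carry no detection calls, and the number of arrays limits the precision.

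Genotypes were compared on the deposited values without further normalization or filter by limma 3.58.1 in R 4.3.3 (lmFit, eBayes, two-sided, genotype as the only term), with Benjamini-Hochberg adjustment over all clusters. Intervals are 95% intervals of that fit. The prior SD was 0.125 with 3.79 prior degrees of freedom. Members, lists and rules were chosen with earlier results of these data known. Given in full were members with a limma p below 0.05, the 5 highest and 5 lowest changes among members whose genotypes did not overlap, and the 3 with the widest gap between replicates. For the other lists, at most 5 genes with a p below 0.05 were to be given. The remaining receptors and Pcsk2, and the Nppc receptors, were chosen after their values were seen. Members were given the coordinates of the file, and 32 of 32 overlapped their RefSeq gene on GRCm38.p6. Promoter windows are those of RefSeq, GRCm38.p6. The 11 alternatives were median centring, quantile normalization, the replicate number as a block, removal of dim clusters, each array left out, an intensity trend, a pooled-variance test without shrinkage, and leaving out clusters that can cross-hybridize. Python 3.11.15 with pandas 2.3.3 and matplotlib 3.10.9 made the tables and plots.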

Additional observations from a re-analysis of the deposited data

How the results depend on the processing

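Past the adjusted threshold there were 0 clusters in 10 of 11 alternatives and 15 in the pooled-variance test without shrinkage. That test takes the spread from each cluster's own values, which vanishes where replicates tie at the deposited decimals in both genotypes. Whether the 15 were such clusters was not tested. The 1 member past the unadjusted threshold became 2 with median centring and with quantile normalization, 3 without dim clusters (one of them Npvf, kept there through its knockout values), 3 in the pooled-variance test and 3 without clusters that can cross-hybridize. Leaving out single arrays gave 0 to 4 members: 0 without either wild-type array, 4 without Adar2-/- replicate 1 (Adcyap1, Nmb, Trh and Ucn3, all lower) and 2 without Adar2-/- replicate 2 (Npvf and Nppc, both higher). The 4 receptors, all lower, became 6 with median centring, all lower, 3 with quantile normalization, 3 in the pooled-variance test and 1 to 7 with single arrays left out, with Avpr1b, Grpr and Npy6r higher in 1 such fit each. The 0 processing genes became 1 (Pcsk2) with median centring, without dim clusters and with an intensity trend, and the 0 degradation clusters 0 to 1 with single arrays left out, the 1 being Lnpep without wild type replicate 2. The 1 further precursor became 2 with median centring, 0 with quantile normalization and 0 to 1 with single arrays left out. Pomc was not that gene without Adar2-/- replicate 1, where it was Apln, nor in the pooled-variance test, where it was Nucb2, both lower. Fewer clusters or samples entered some of these fits, and otherwise the cause was not tested. The change turned sign in at least 1 alternative in 14 of the 32 members, whose changes were at most 0.145 in size with all arrays. Among the 13 members given in full these were Gal, which ranged from -0.145 without Adar2-/- replicate 1 to 0.435 without replicate 2, and Nmb, which ranged from -0.415 without Adar2-/- replicate 1 to 0.215 without replicate 2. Adarb1 stayed between -1.52 and -1.32. Each fit without an array takes the spread of the single remaining array from the other genotype.

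Only 2 pairs of same-numbered arrays exist, and their deviations from the group means had a Pearson correlation of 0.0516 over the clusters, so the numbers were not taken as pairing. In the fit with a replicate block, 3 members passed (Gnrh1, Npvf and Nppc), 1 receptor passed (Npy1r), and 0 clusters passed the adjusted threshold.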
